A study of Mus musculus with 18 samples.

Results

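The 10 genes described here make, move, break down or receive prostaglandins, and they were taken by gene symbol from the 55486 genes of a count table. Ptgs1 and Ptgs2 encode the cyclooxygenases, Ptges and Ptgis the terminal synthases of prostaglandin E2 and prostacyclin, Slco2a1 the prostaglandin transporter and Hpgd the enzyme that inactivates prostaglandins. Ptger2, Ptger3 and Ptger4 encode receptors of prostaglandin E2, and Ptgfr encodes the receptor of prostaglandin F2-alpha. All 10 genes had enough counts to be tested.

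RNA was sequenced from normal fibroblasts (NFs) of the mammary gland of FVB/n mice, sorted on the surface peptidase CD26 and then cultured. CD26- and CD26+ NFs were each exposed for 7 days to control conditioned medium or to conditioned medium (CM) of tumor cell lines. The lines came from WEPtn tumors, which arise in the mammary gland of mice with a Wap-driven Cre and model invasive lobular carcinoma. CD26- NFs had 3 libraries in control medium and 6 in tumor CM, and CD26+ NFs likewise had 3 and 6. Within a cell type no CM was used for more than 1 library, and the CM came from line 13-MCB-17, 10-SJK-221, 18-MCB-12, 13-MCB-44, 13-MCB-90 or 13-MCB-138, so that the spread within a CM group contained the differences between lines. The study's methods describe cells pooled from several animals, and no label says that libraries came from separate animals or cultures. The p-values therefore measure the spread between these libraries, which may in part be technical. What the control medium was conditioned on is not given in the sources used here. Per the study's methods the tumor lines were maintained with epidermal growth factor, insulin and cholera toxin, which raises cyclic AMP. For other assays the methods describe tumor CM made in serum-free medium, or in a mix that contained the tumor cell medium. They do not state which served here. Whether the tumor CM or the control medium held these supplements is not given, so that their part in a CM effect and that of the tumor cells cannot be told apart.

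Prostaglandins are local lipid signals made from arachidonic acid. A cyclooxygenase turns arachidonic acid into an unstable intermediate, which terminal synthases convert into prostaglandin E2, prostacyclin and related prostanoids. Ptgs1 is usually expressed at a steady level, whereas Ptgs2 is known as the form induced by growth factors and inflammatory signals, and fibroblasts are a recognized source of prostaglandin E2 in inflamed and tumor-bearing tissue. Signaling ends when the transporter takes up the ligand and Hpgd oxidizes it inside the cell. The receptors encoded by Ptger2 and Ptger4 raise cyclic AMP, that of Ptger3 mostly lowers it, and that of Ptgfr mainly acts through calcium.

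Library totals ranged from 9725723 to 14585349 counts, and the ranges of the 4 groups overlapped. Values are normalized read counts, brought to a common scaled library size (CPM), and are given as mean ± SD over libraries. Fibroblast markers were detected in every group (10 of 10 genes with counts), with a summed level of 25507 to 28380 CPM in control medium and 16320 to 31188 CPM in tumor CM for CD26- NFs, and 76424 to 96014 CPM and 38748 to 64870 CPM for CD26+ NFs. In CD26+ NFs tumor CM lowered 5 of the 10 and raised 3, and the summed levels did not overlap between media. In CD26- NFs it raised 4 and lowered 1. Between cell types, 9 of the 10 were higher in CD26+ NFs in control medium and 8 in tumor CM, and 0 were lower in either. Dpp4, which encodes CD26, had 0 to 2 counts in CD26- and 0 to 1 in CD26+ NFs in control medium, and 1 to 11 and 8 to 104 counts in tumor CM, so its transcript did not separate the cell types in control medium. The paper reports, by flow cytometry, a rapid loss of CD26 from CD26+ NFs in culture. Its part in these counts was not tested. Epithelial markers differed with cell type. Their 12 genes summed to 5167 to 5838 CPM in CD26- NFs in control medium and 3406 to 5551 CPM in tumor CM, against 819.9 to 1520 CPM and 769 to 1863 CPM in CD26+ NFs. Of the 12, 11 were lower in CD26+ NFs in either medium, although the sort had removed cells with EpCAM on the surface. Endothelial markers summed to 3.78 to 4.67 CPM in control medium and 3.76 to 9.00 CPM in tumor CM in CD26- NFs, and to 1.13 to 2.23 CPM and 1.59 to 3.73 CPM in CD26+ NFs, and CD26+ NFs were lower in 2 of the 3 tested (Cdh5 and Vwf) in control medium and in Cdh5 in tumor CM. Immune markers summed to 40.83 to 45.02 CPM and 36.4 to 54.9 CPM in CD26- NFs and to 24.4 to 29.9 CPM and 30.9 to 44.2 CPM in CD26+ NFs, and of the 4 tested Cd14 and Cd68 were lower in CD26+ NFs in both media. Adipocyte markers summed to 14.3 to 16.0 CPM and 16.9 to 27.9 CPM in CD26- NFs (control medium, then tumor CM) and to 22.3 to 37.8 CPM and 32.7 to 89.1 CPM in CD26+ NFs, and the 3 of 5 tested were higher in CD26+ NFs in both media. Mural markers summed to 199.5 to 213 CPM and 87.5 to 198 CPM in CD26- NFs, and to 61.3 to 81.7 CPM and 63.0 to 107 CPM in CD26+ NFs. In control medium 4 of these 5 were lower in CD26+ NFs, and in tumor CM 2 were lower and 1 higher. Rgs5 (-2.19, FDR 0.000273) and Mcam (-1.49, FDR 0.00163) fell with tumor CM in CD26- NFs, and 1 of the 5 rose in CD26+ NFs. For 2 of the 5 the difference in CM effect, CD26+ minus CD26-, was called positive. The part of endothelial, immune, adipocyte and mural markers in the results was not tested. In these lists Cd3e had no count in either control group, Tie1 had none in CD26- NFs in control medium, Cidec had none in CD26- NFs and Lep had none in CD26+ NFs.

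Per kilobase of exon, Ptgs2 had the highest level of the 10 genes in all 4 groups. In CD26- NFs its level was 531 ± 16.5 CPM per kb with control medium (n = 3) and 553 ± 85.2 with tumor CM (n = 6). In CD26+ NFs it was 108 ± 18.6 (n = 3) and 197 ± 33.1 (n = 6). The next 4 genes by level were Slco2a1, Ptgs1, Ptgis and Ptges, which lay between 14.4 and 63.7 CPM per kb as group means. The receptors and Hpgd were lower, with group means between 0.0585 and 5.03 CPM per kb. Among the 4 receptor genes of this set, which leaves out the prostacyclin receptor, the leading gene differed by cell type. In CD26- NFs it was Ptger4, at 2.12 ± 0.249 CPM per kb in control medium and 1.96 ± 0.257 in tumor CM. In CD26+ NFs it was Ptgfr, at 5.03 ± 0.308 CPM per kb in control medium and 4.65 ± 0.745 in tumor CM. The plot of normalized read counts by library shows these levels for each gene and CM line.

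**Figure D1:**
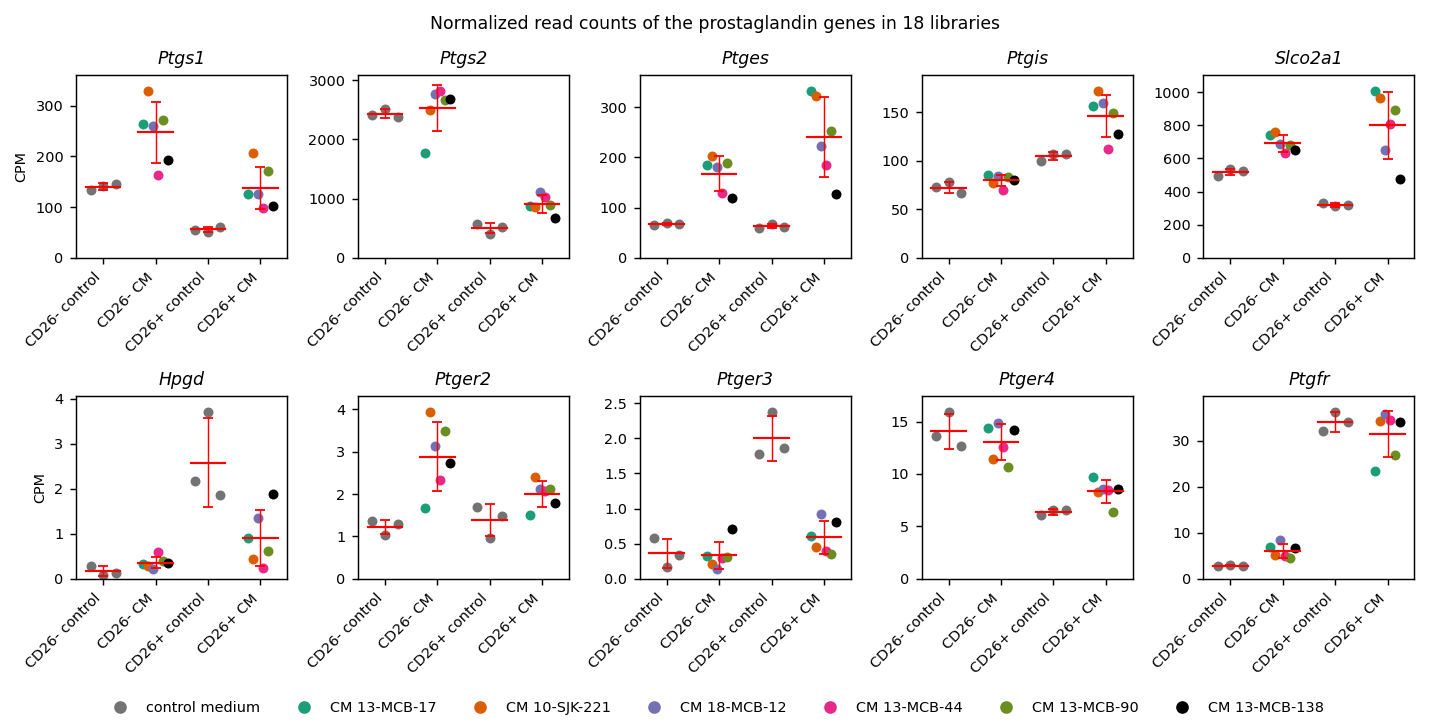
Normalized read counts (CPM, vertical axes starting at 0, a scale of its own for each gene) of the 10 prostaglandin genes in the 18 libraries, 1 dot per library, colored by the tumor line that gave the CM (gray: control medium), with the mean and SD of each group in red. Ptgs2 lay between 1768 and 2813 CPM in all 9 CD26- libraries and between 400.4 and 1104 CPM in all 9 CD26+ libraries, and Ptges was higher in every CM library than in any control library.

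The 250 bases before the transcription start of 4 members are shown because these are the 2 cyclooxygenase genes, the terminal synthase and the transporter whose levels carry the comparisons that follow. The sequences and starts are those of RefSeq on GRCm38.p6, where 9 of the 10 members were matched, and each runs 5′ to 3′ on the strand of the gene. They lie at chr2:36230176-36230425 (plus strand, Ptgs1), chr1:150099781-150100030 (plus strand, Ptgs2), chr2:30903298-30903547 (minus strand, Ptges) and chr9:103008237-103008486 (plus strand, Slco2a1). Capitals mark a match to a searched motif.
Ptgs1: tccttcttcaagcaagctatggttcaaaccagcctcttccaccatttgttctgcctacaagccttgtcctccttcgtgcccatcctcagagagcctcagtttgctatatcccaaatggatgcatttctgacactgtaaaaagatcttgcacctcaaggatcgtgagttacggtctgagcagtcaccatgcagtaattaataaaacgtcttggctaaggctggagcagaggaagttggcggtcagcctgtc
Ptgs2: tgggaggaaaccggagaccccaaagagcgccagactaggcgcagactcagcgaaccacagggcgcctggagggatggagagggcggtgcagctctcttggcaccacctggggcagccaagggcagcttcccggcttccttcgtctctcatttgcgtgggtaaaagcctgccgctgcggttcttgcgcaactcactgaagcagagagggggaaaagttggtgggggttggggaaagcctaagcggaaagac
Ptges: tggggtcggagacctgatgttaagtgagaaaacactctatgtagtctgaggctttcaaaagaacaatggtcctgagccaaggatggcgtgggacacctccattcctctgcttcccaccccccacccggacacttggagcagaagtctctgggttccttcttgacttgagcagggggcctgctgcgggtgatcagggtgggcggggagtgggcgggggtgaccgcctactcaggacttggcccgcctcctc
Slco2a1: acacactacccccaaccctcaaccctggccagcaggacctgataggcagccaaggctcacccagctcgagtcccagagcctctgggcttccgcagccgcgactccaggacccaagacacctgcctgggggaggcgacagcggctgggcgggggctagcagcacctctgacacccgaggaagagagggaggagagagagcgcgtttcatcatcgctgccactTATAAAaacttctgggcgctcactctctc

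The windows, extended to 50 bases after the start, were searched on both strands for the cyclic AMP response element TGACGTCA, its shorter core TGACG (contained in the former), the NF-kB consensus, the AP-1 site (TGACTCA or TGAGTCA), the TATA box TATAAA and the CCAAT box CCAAT. Slco2a1 had a TATA box 29 to 24 bases before its start, a motif held by 13.6% of 32851 windows of this length. Ptgs2 had the core TGACG on the minus strand at bases 14 to 18 after its start, a motif held by 20.8% of windows. Of the other members, Hpgd had a TATA box at bases 5 to 10 after its start, and Ptger2 and Ptger4 each had a CCAAT box before the start, a motif held by 37.4% of windows. None of the searched motifs was found in the windows of Ptgs1, Ptges, Ptger3 or Ptgfr. The full cyclic AMP response element (1.79% of windows), the NF-kB consensus (8.46%) and the AP-1 site (5.2%) were in no member's window. A match describes the letters only, and for Ptges, Ptgfr and Slco2a1 the RefSeq start lies inside the gene span of the count table, so that other starts were not covered.

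The first question was how NFs respond to tumor CM. In CD26- NFs, 4 of the 10 genes rose at an FDR under 0.05 (Ptgs1, Ptges, Ptger2 and Ptgfr), where 7.88% of the 14273 tested genes rose and 7.28% fell. FDR stands for the adjusted p (Benjamini-Hochberg over all tested genes) of edgeR's quasi-likelihood F test. None of the 10 fell by this test, none at an unadjusted p under 0.05, and none by DESeq2. In CD26+ NFs, 6 genes rose (Ptgs1, Ptgs2, Ptges, Ptgis, Ptger4 and Slco2a1) and 2 fell (Ptger3 and Hpgd), where 15.2% of all tested genes rose and 13.4% fell. The median log2 fold change of the 10 genes was 0.62 in CD26- NFs and 0.51 in CD26+ NFs, and that of all tested genes was 0.01 and 0.00. With the added limit of the study's methods, a log2 fold change over 2 or under -2, no member was called in either cell type, where 0.904% and 2.01% of all genes were. The RNA came from whole cultures, in which fewer cells of a type and less RNA per cell cannot be told apart. The plot of log2 fold changes in tumor CM sets both cell types side by side.

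**Figure D2:**
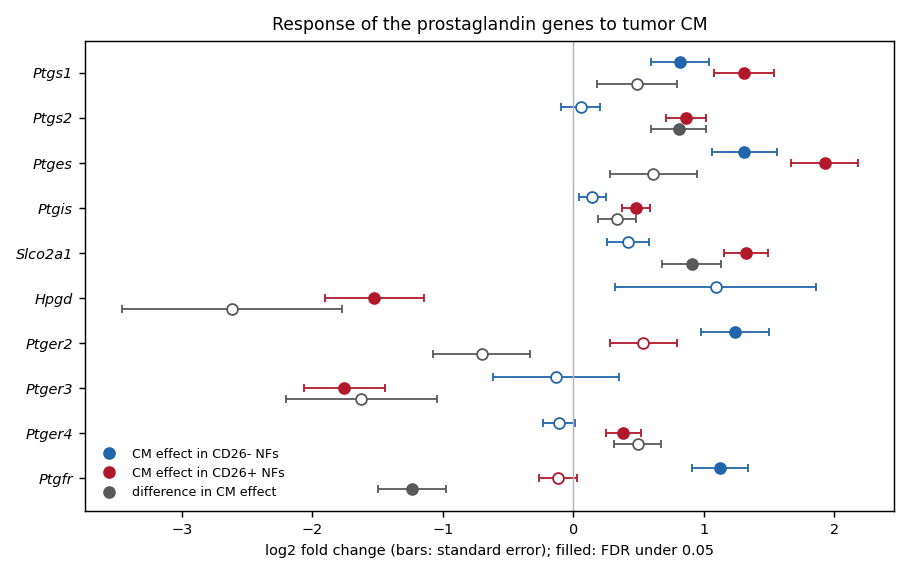
Log2 fold change in tumor CM over control medium (horizontal axis, with its standard error) for the 10 genes in CD26- NFs (blue) and CD26+ NFs (red), and the difference between these effects (gray, CD26+ minus CD26-); filled dots have an FDR under 0.05. Ptges rose by 1.31 in CD26- and by 1.93 in CD26+ NFs, and Ptger3 and Hpgd were the genes that fell in CD26+ NFs.

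Ptges (chr2:30889471-30929863, minus strand), whose product converts the cyclooxygenase product into prostaglandin E2, had 65.9, 69.2 and 67.2 CPM in the 3 CD26- libraries in control medium. The CD26- libraries in tumor CM ranged from 119 through a median of 183 to 202 CPM. In CD26+ NFs the control libraries had 60.0, 67.9 and 61.9 CPM, and the CM libraries ranged from 126 through 238 to 332 CPM. In both cell types all 6 CM libraries lay above all control libraries. The rise was 2.48-fold in CD26- NFs (log2 fold change 1.31 ± 0.25, SE, FDR 0.00239) and 3.80-fold in CD26+ NFs (1.93 ± 0.25, FDR 3.06e-05).

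Ptgs1 (chr2:36230426-36252272, plus strand), a cyclooxygenase like Ptgs2, had 133, 142 and 147 CPM in CD26- NFs in control medium and 164, 263 and 329 CPM as the lowest, median and highest value in tumor CM. In CD26+ NFs the control libraries had 54.9, 51.4 and 61.0 CPM, and the CM libraries ranged from 98.3 through 125 to 206 CPM. The groups did not overlap within either cell type. The log2 fold change was 0.82 ± 0.22 in CD26- NFs (FDR 0.0198) and 1.31 ± 0.23 in CD26+ NFs (FDR 0.000476). The call in CD26- NFs was lost when any 1 of the CD26- control libraries was left out, with an FDR of 0.0799 without replicate 1, 0.0611 without replicate 2 and 0.0714 without replicate 3.

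Ptgs2 (chr1:150100031-150108227, plus strand), the inducible cyclooxygenase, did not pass the test in CD26- NFs and rose in CD26+ NFs. CD26- NFs had 2405, 2519 and 2376 CPM in control medium. Their CM libraries ranged from 1768 through a median of 2675 to 2813 CPM and overlapped with the controls (log2 fold change 0.06 ± 0.15, FDR 0.835). CD26+ NFs had 566, 400.4 and 519.7 CPM in control medium. All 6 of their CM libraries were higher, from 669 through 879.6 to 1104 CPM (0.87 ± 0.16, FDR 0.000546). The CM libraries of CD26+ NFs still lay below every CD26- library.

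Ptgis (chr2:167191805-167240604, minus strand), the prostacyclin synthase, changed less. CD26- NFs had 72.4, 77.8 and 66.3 CPM in control medium and 70.1 to 85.4 CPM in tumor CM, with a median of 81.4 (log2 fold change 0.15 ± 0.11, FDR 0.367). CD26+ NFs had 99.7, 107 and 107 CPM in control medium and 112 to 172 CPM in tumor CM, with a median of 153. The CD26+ groups did not overlap and the gene rose by 0.48 ± 0.10 on the log2 scale (FDR 0.00241).

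Slco2a1 (chr9:102988712-103096002, plus strand), the transporter that carries prostaglandins into the cell, had 496, 536 and 522 CPM in CD26- NFs in control medium and 632, 686 and 761 CPM as the lowest, median and highest value in tumor CM. The groups did not overlap, but the log2 fold change of 0.42 ± 0.16 did not pass (FDR 0.0884). It passed without CD26+ CM replicate 18, a library outside this comparison that enters the shared estimate of spread (FDR 0.00971), and in a fit of the compared groups alone (FDR 0.00325). In CD26+ NFs the control libraries had 330.0, 310.5 and 316 CPM and the CM libraries 473 to 1007 CPM, with a median of 849. The rise there was 2.51-fold (1.33 ± 0.17, FDR 2.23e-05).

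Hpgd (chr8:56294585-56321043, plus strand), which inactivates prostaglandins by oxidation, was near the limit of detection in CD26- NFs, with 3, 1 and 2 counts in control medium and 3 to 8 counts in tumor CM. At this depth a change there was not detectable, since 6 against 28 counts gave a ratio of 2.20 with a counting interval (exact, 95%) of 0.896 to 6.51. CD26+ NFs had 27, 50 and 25 counts in control medium, or 2.19, 3.70 and 1.86 CPM. Tumor CM libraries had 0.238 to 1.88 CPM with a median of 0.765, and only the highest of them, replicate 18, reached the range of the controls. The gene fell by 1.52 ± 0.38 on the log2 scale (FDR 0.00636). Without CD26+ control replicate 11, the highest library, the call was lost (FDR 0.0650). Intervals from counts cover counting error only.

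Of the receptors of prostaglandin E2, Ptger2 (chr14:44988195-45003820, plus strand) had 1.36, 1.02 and 1.29 CPM in CD26- NFs in control medium and 1.68, 2.94 and 3.93 CPM as the lowest, median and highest value in tumor CM. It rose by 1.24 ± 0.26 on the log2 scale (FDR 0.00455), and no CM library overlapped with the controls. CD26+ NFs had 1.70, 0.963 and 1.48 CPM in control medium and 1.52 to 2.40 CPM in tumor CM, with a median of 2.09. These groups overlapped and the gene did not pass the test (0.54 ± 0.26, FDR 0.130).

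Ptger3 (chr3:157566892-157645888, plus strand) had 2 to 6 counts per CD26- control library and 2 to 8 per CD26- CM library, so that its CM effect in CD26- NFs, -0.13 ± 0.48 on the log2 scale (FDR 0.889), had no stable sign. In CD26+ NFs it had 1.78, 2.37 and 1.86 CPM in control medium and 0.355 to 0.929 CPM in tumor CM, with a median of 0.528. All 6 CM libraries lay below all 3 controls, and the gene fell by 1.76 ± 0.31 (FDR 0.000476).

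Ptger4 (chr15:5206661-5244187, minus strand) had 13.6, 15.9 and 12.7 CPM in CD26- NFs in control medium and 10.7 to 14.9 CPM in tumor CM, with a median of 13.4 (log2 fold change -0.11 ± 0.12, FDR 0.581). In CD26+ NFs it had 6.07, 6.52 and 6.60 CPM in control medium and 6.39 to 9.70 CPM in tumor CM, with a median of 8.53. Replicate 17 alone overlapped with the controls, and the rise of 0.38 ± 0.13 passed narrowly (FDR 0.0371). This call was lost without any 1 of the CD26+ control replicates 10, 11 and 12 or of the CD26+ CM replicates 13, 14, 15 and 16, with an FDR of up to 0.127, and also without a filter on low counts (0.0695) and with the compared groups alone (0.0572). Ptger4 shares 82 exon bases with Ttc33 on the opposite strand, which had 164 to 246 counts per library, and the strand setting of the counting is not given in the sources used here.

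Ptgfr (chr3:151796502-151837630, minus strand), the receptor of prostaglandin F2-alpha, had 2.81, 2.90 and 2.71 CPM in CD26- NFs in control medium and 4.42 to 8.49 CPM in tumor CM, with a median of 5.99. It rose 2.18-fold (log2 fold change 1.12 ± 0.22, FDR 0.00271) without overlap. CD26+ NFs had 32.1, 36.2 and 34.1 CPM in control medium and 23.5 to 35.9 CPM in tumor CM, with a median of 34.2, and did not pass the test (-0.11 ± 0.15, FDR 0.605). Gm43618, on the opposite strand, shares 329 exon bases with Ptgfr and had 1 to 31 counts per library.

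Whether the cell types differed in their response was tested as the difference between the CM effects (CD26+ minus CD26-). The difference was called positive for Ptgs2 (0.81 ± 0.21, FDR 0.0284) and Slco2a1 (0.91 ± 0.23, FDR 0.0225), as for 4.53% of all tested genes. It was called negative for Ptgfr (-1.24 ± 0.26, FDR 0.0101), as for 3.01% of all genes. A negative difference can stand for a stronger rise in CD26- NFs, as with Ptgfr, or for a stronger fall in CD26+ NFs. No member passed both limits in the fit of the groups alone, where 0.392% of all genes did. Because libraries that shared a CM line deviated together, the line was also used as a block. With the block, the difference was called positive for 6 members, as for 9.42% of all genes, and negative for 2, as for 8.21%. Added by the block were Ptgs1 (0.48, FDR 0.00841), Ptges (0.57, FDR 0.0102), Ptgis (0.32, FDR 0.0386), Ptger4 (0.49, FDR 0.0223) and Hpgd (-2.67, FDR 0.0397). Without the block these 5 had FDRs between 0.0632 and 0.342. Hpgd, at -2.62 (FDR 0.0632) in the fit of the groups alone, passed both limits with the block, by DESeq2 (-2.64, FDR 0.0394) and without CD26+ CM replicate 18 (-2.95, FDR 0.0117). The call of Ptgs2 was lost without CD26- control replicate 1, 2 or 3 (FDR 0.0554 to 0.0627), CD26+ control replicate 11 (0.112) or 12 (0.0606). That of Slco2a1 was lost without CD26- control replicate 2 or 3 (0.0506 and 0.0564) or CD26+ control replicate 11 or 12 (0.0746 and 0.0593), and in these 4 fits Ptgfr was the only member called.

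The responses also varied with the line that gave the CM. In a test of the line terms, which was added after the values had been seen, Ptgs1 (FDR 8.59e-05) and Ptges (FDR 0.000315) were the 2 members that passed, where 13.8% of all tested genes did. Ptgs1 ranked the 6 lines in the same order in both cell types. The level with CM of 10-SJK-221 was 329 CPM in CD26- NFs and 206 CPM in CD26+ NFs, followed by 13-MCB-90 (273 and 170.4), 13-MCB-17 (264 and 126), 18-MCB-12 (261 and 125), 13-MCB-138 (193 and 103) and 13-MCB-44 (164 and 98.3). The mean over the cell types spanned 1.03 on the log2 scale between the first and the last line. Ptges was lowest with CM of 13-MCB-138 in both cell types, at 119 CPM in CD26- and 126 CPM in CD26+ NFs, and spanned 1.06 on the log2 scale. It was highest with 10-SJK-221 in CD26- NFs (202 CPM) and with 13-MCB-17 in CD26+ NFs (332 CPM). CM of 13-MCB-138 also gave the lowest Slco2a1 and Ptgs2 in CD26+ NFs, 473 and 669 CPM, although the line test did not pass for either gene (FDR 0.0805 and 0.286). Without CD26- CM replicate 9, which received CM of 13-MCB-138, 5 members passed the line test, Ptgs2 (0.0319), Ptgis (0.0180) and Slco2a1 (0.000392) being added, and 21.8% of all tested genes passed it. In that fit the line 13-MCB-138 rested on CD26+ CM replicate 18 alone, and the other lines supplied the spread. The map of changes by line shows each library against the mean of its controls.

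**Figure D3:**
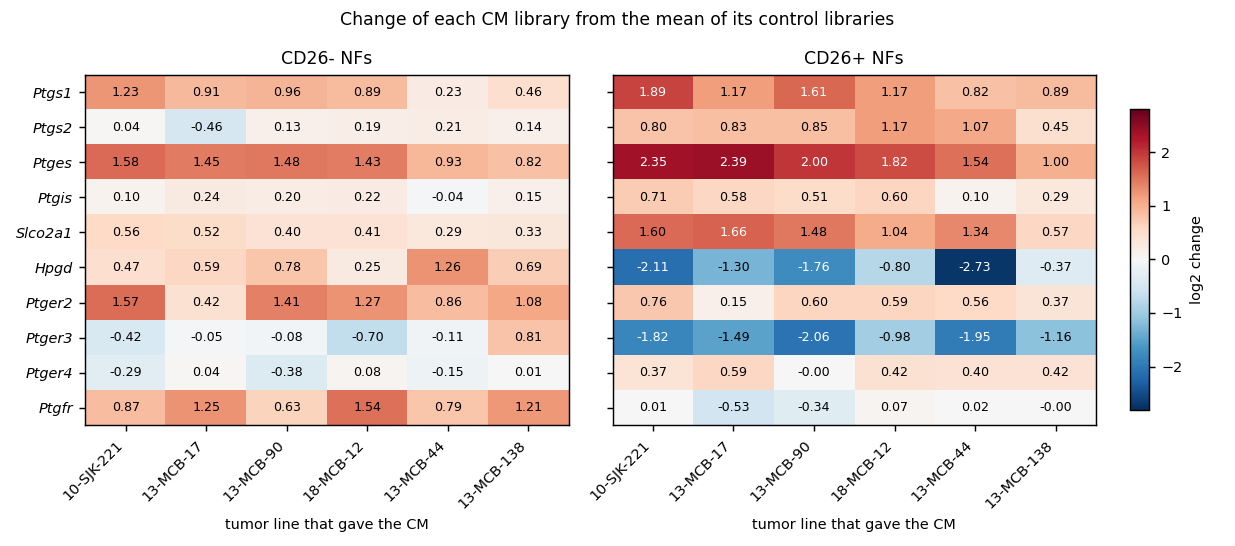
Log2 change of each CM library from the mean of the control libraries of its cell type (color and printed value; red up, blue down) for the 10 genes (rows) and the 6 tumor lines that gave the CM (columns), in CD26- NFs (left) and CD26+ NFs (right). Ptges was up in all 12 squares, from 0.82 to 2.39, and Ptgs2 was up in all 6 lines in CD26+ NFs and between -0.46 and 0.21 in CD26- NFs.

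Line by line, the log2 change was compared with its sign, so that a fall counts as the lower value. It was higher in CD26+ than in CD26- NFs in 6 of 6 lines for Ptgs1, Ptgs2, Ptges, Ptgis, Ptger4 and Slco2a1. For Ptger2, Ptger3, Ptgfr and Hpgd it was higher in 0 of 6 lines. Of these, Ptger3 and Hpgd fell in CD26+ NFs, where 0 of 6 lines lay above the control mean. The 6 pairs share the 3 control libraries of each cell type, so that these counts are a description. The smallest rise of Slco2a1 in CD26+ NFs (0.57) exceeded its largest rise in CD26- NFs (0.56).

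The second question was how CD26+ and CD26- NFs differ in a given medium. In control medium, 4 members were higher in CD26+ NFs (Ptgis, Ptger3, Ptgfr and Hpgd) and 4 were lower (Ptgs1, Ptgs2, Ptger4 and Slco2a1), where 25.0% of all tested genes were higher and 25.4% lower. Of the 8, Ptgs2, Ptger3, Ptgfr and Hpgd passed both limits, as did 5.97% of all genes. In tumor CM, Ptges, Ptgis, Ptgfr and Hpgd were higher and Ptgs1, Ptgs2, Ptger2 and Ptger4 lower, where 29.3% of all genes were higher and 29.3% lower. Ptgfr alone passed both limits, as did 4.16% of all genes. With the CM line as a block, Ptger3 was added (0.84, FDR 0.0458, against 0.0516 without the block), which made 5 members higher, where 31.6% of all genes were, and left 4 lower, where 31.4% were. The median log2 difference of the 10 genes was 0.04 in control medium and 0.36 in tumor CM, against 0.01 and -0.00 for all tested genes. These comparisons and those of the CM effect share libraries.

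Ptgs2 was at 0.204 times its CD26- level in CD26+ NFs in control medium (log2 fold change -2.30 ± 0.18, FDR 3.70e-08) and at 0.356 times in tumor CM (-1.49 ± 0.12, FDR 2.63e-08). Ptgfr showed the opposite order, 12.1-fold higher in CD26+ NFs in control medium (3.60 ± 0.22, FDR 2.77e-09) and 5.15-fold higher in tumor CM (2.36 ± 0.14, FDR 5.55e-10). For both genes the cell types did not overlap in either medium. Ptgs1 was lower in CD26+ NFs by 1.33 ± 0.26 in control medium (FDR 0.000308) and by 0.84 ± 0.18 in tumor CM (FDR 0.000502), and Ptger4 by 1.13 ± 0.15 (FDR 5.94e-06) and 0.64 ± 0.10 (FDR 3.59e-05). Over the group means of Ptgs1, CD26- NFs in control medium (140.4 ± 6.91 CPM) and CD26+ NFs in tumor CM (138 ± 42.0 CPM) were neighbors that did not differ beyond their spread.

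Ptgis was higher in CD26+ NFs by 0.54 ± 0.12 in control medium (FDR 0.00121) and by 0.87 ± 0.08 in tumor CM (FDR 1.41e-07), and CD26+ NFs had the higher value in 6 of 6 lines. Ptges did not pass in control medium (-0.09 ± 0.27, FDR 0.804) and was higher in CD26+ NFs in tumor CM (0.52 ± 0.19, FDR 0.0232), with the higher value in 6 of 6 lines. This call was lost with the compared groups alone (FDR 0.0560) and without CD26- CM replicate 7 or 9 (0.0539 and 0.0544) or CD26+ CM replicate 13 or 14 (0.0706 and 0.0679). Slco2a1 was lower in CD26+ NFs in control medium (-0.70 ± 0.18, FDR 0.00420) and did not pass in tumor CM (0.21 ± 0.13, FDR 0.180). Without CD26+ CM replicate 18 it was higher there (0.32, FDR 0.00411).

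Hpgd had 102 counts in the 3 CD26+ libraries in control medium against 6 in the CD26- libraries, a ratio of 15.9 with a counting interval of 7.06 to 44.4 (log2 fold change 3.90 ± 0.62, FDR 5.31e-05). In tumor CM the difference was 1.29 ± 0.44 (FDR 0.0179), it was positive in 5 of 6 lines, and the call was lost without CD26+ CM replicate 18 (0.96, FDR 0.0564). Ptger3 was 5.53-fold higher in CD26+ NFs in control medium (2.47 ± 0.41, FDR 8.55e-05). In tumor CM its difference of 0.84 ± 0.36 just missed the threshold, and it passed without CD26- control replicate 1 or 2 (0.0473 and 0.0476), without CD26- CM replicate 9 (1.17, FDR 0.00816) and without CD26+ CM replicate 14, 16 or 17 (0.0488, 0.0402 and 0.0362). Ptger2 did not pass in control medium (0.17 ± 0.32, FDR 0.682) and was lower in CD26+ NFs in tumor CM (-0.53 ± 0.19, FDR 0.0227), in 6 of 6 lines. This call was lost without CD26- CM replicate 5 or 8 (0.0687 and 0.0547), without CD26+ CM replicate 13 (0.0531) and without a filter on low counts (0.0528).

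Epithelial markers moved with cell type as given above, and the fit was repeated with the mean log2 CPM of these markers as a covariate. Ptgs1, Ptgs2 and Ptger4 stayed lower and Ptgfr stayed higher in CD26+ NFs in both media, so that 1 member was higher and 3 were lower. Of all genes, 3.34% were then higher and 2.42% lower in control medium, and 4.88% and 3.44% in tumor CM. Ptgs2 had a difference of -1.86 ± 0.33 (FDR 0.00346) in control medium and -1.10 ± 0.28 (FDR 0.0254) in tumor CM, and Ptgfr of 3.09 ± 0.34 (FDR 7.98e-05) and 1.92 ± 0.26 (FDR 0.000431). Calls lost with the covariate in control medium were those of Ptgis (0.03, FDR 0.955), Hpgd (2.12, FDR 0.291), Ptger3 (1.67, FDR 0.294) and Slco2a1 (-0.44, FDR 0.547). In tumor CM they were those of Ptges (0.14, FDR 0.889), Ptgis (0.42, FDR 0.135), Ptger2 (-0.53, FDR 0.538) and Hpgd, whose sign changed (-0.31, FDR 0.880). Of the CM effects, that of Ptgs1 in CD26- NFs was lost (0.68, FDR 0.0633). Because the covariate and the cell type move together, their parts cannot be told apart in these fits. The plot of differences between cell types gives both fits.

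**Figure D4:**
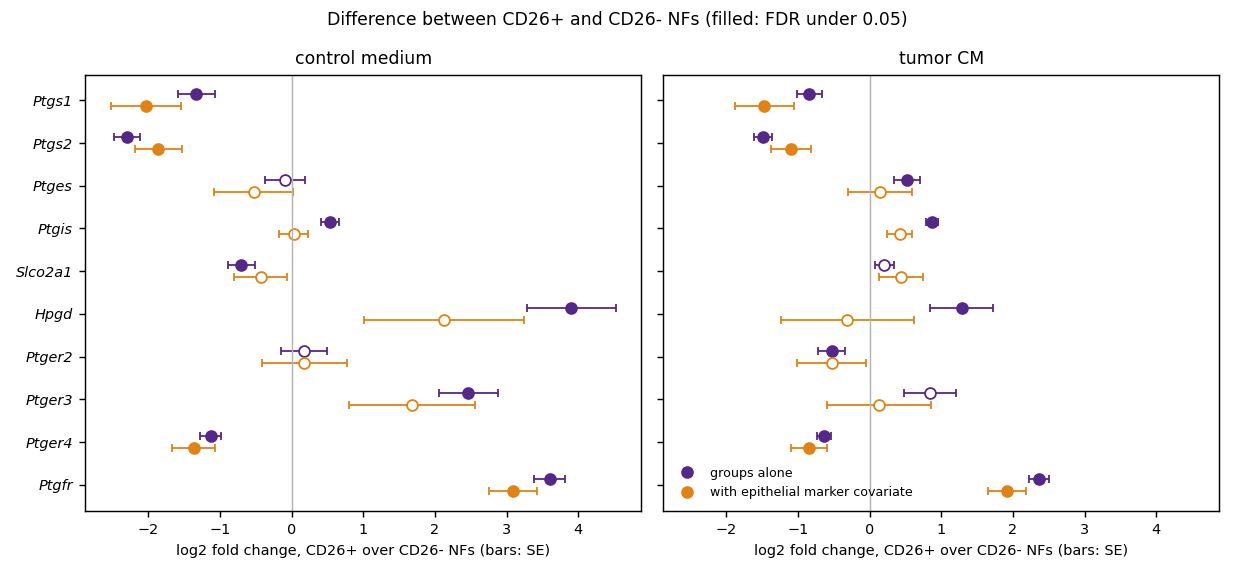
Log2 fold change of CD26+ over CD26- NFs (horizontal axis, with its standard error) for the 10 genes in control medium (left) and tumor CM (right), in the fit of the groups alone (purple) and with the mean epithelial marker level as a covariate (orange); filled dots have an FDR under 0.05. Ptgs1, Ptgs2, Ptger4 and Ptgfr are filled in both fits and both media.

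Further genes of the pathway were described from lists. Of 18 other prostanoid genes in the table, 13 were tested. In tumor CM 5 of the 13 rose in CD26- NFs and 6 in CD26+ NFs, where 7.88% and 15.2% of all tested genes did. None fell at an FDR under 0.05 in either (edgeR; 0 and 1 at an unadjusted p under 0.05; 0 and 0 by DESeq2). Ptgir, the prostacyclin receptor that raises cyclic AMP, rose in CD26- NFs from 12.2 ± 0.950 to 36.6 ± 10.2 CPM (log2 fold change 1.59 ± 0.27, FDR 0.00129) and from 11.8 ± 1.86 to 37.2 ± 11.3 CPM in CD26+ NFs (1.65 ± 0.27, FDR 0.000251). Abcc4, which exports prostaglandins, rose in CD26+ NFs from 40.1 ± 0.630 to 72.6 ± 11.4 CPM (0.86 ± 0.12, FDR 5.79e-05) and had a larger CM effect there than in CD26- NFs (0.56 ± 0.16, FDR 0.0449), the only gene of the list with such a call. Akr1b3, an aldo-keto reductase with prostaglandin F synthase activity, rose in tumor CM (0.37 in CD26- and 0.46 in CD26+ NFs). It was lower in CD26+ NFs in control medium (-1.07, FDR 2.87e-07) and in tumor CM (-0.98, FDR 6.47e-09). Prxl2b, another prostaglandin F synthase, rose by 0.71 in CD26- and 0.44 in CD26+ NFs. In each medium CD26+ NFs exceeded CD26- NFs in 3 genes of the list and were below them in 3, which is at or under the share of all tested genes (25.0% and 25.4% in control medium, 29.3% each way in tumor CM). Abcc4 was lower in CD26+ NFs by 1.18 ± 0.13 in control medium (FDR 1.52e-06) and by 0.63 ± 0.09 in tumor CM (FDR 1.55e-05), and Ptgfrn, which encodes a protein that binds the prostaglandin F2-alpha receptor, was higher by 0.30 (FDR 0.000705) and 0.40 (FDR 8.25e-07). Tbxa2r, the thromboxane receptor, was higher by 1.18 ± 0.30 in control medium (FDR 0.00328). With the epithelial marker covariate, Akr1b3 in both media (FDR 0.0245 and 0.0115) and Abcc4 in control medium (FDR 0.0103) were still called between cell types. Some differences lost the call at a like or larger size, among them Tbxa2r, higher in CD26+ NFs by 1.18 ± 0.60 and 1.14 ± 0.51 (FDR 0.280 and 0.174), and Abcc4 in tumor CM (-0.73 ± 0.23, FDR 0.0587). Others lost it and became smaller. Ptgfrn was then higher by 0.18 and 0.28 (FDR 0.455 and 0.110). Ptger1 in control medium went from 1.48 to 0.23 (FDR 0.936), and Zadh2 in tumor CM from 0.16 to -0.01 (FDR 0.980). The larger CM effect on Abcc4 in CD26+ NFs was then 0.57 (FDR 0.0504).

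Of 24 genes of arachidonate release and the lipoxygenase branch, 11 were tested. Mgll, a monoacylglycerol lipase that can feed the arachidonate pool, fell in tumor CM from 133 ± 8.98 to 63.3 ± 18.0 CPM in CD26- NFs (-1.07 ± 0.20, FDR 0.00202) and from 38.9 ± 3.75 to 21.9 ± 5.91 CPM in CD26+ NFs (-0.83 ± 0.21, FDR 0.00776). It was the only gene of this list called in CD26- NFs. In CD26+ NFs 2 rose and 2 fell, near the shares of all genes (15.2% and 13.4%), among them Pla2g4a, the cytosolic phospholipase that releases arachidonic acid, which rose from 149 ± 4.86 to 205 ± 30.4 CPM (0.46 ± 0.10, FDR 0.00310). Between cell types 6 of the 11 were lower in CD26+ NFs in each medium, where 25.4% and 29.3% of all tested genes were, and in tumor CM 1 was higher. Mgll differed by -1.77 in control medium and -1.53 in tumor CM, and Faah, which breaks down fatty acid amides, by -1.95 (FDR 0.000977) and -1.37 (FDR 0.000551). With the epithelial marker covariate no gene of this list was called between cell types in either medium (edgeR; 3 at an unadjusted p under 0.05 in each). Of the 6 called without it, 3 had differences at least as large with it, and their standard errors were larger. Pla2g6, a phospholipase, went from -0.24 ± 0.088 to -0.29 ± 0.18 in control medium and from -0.45 ± 0.063 to -0.50 ± 0.16 in tumor CM, and Plaa and Lta4h likewise had -0.27 and -0.22 in control medium and -0.20 and -0.22 in tumor CM. The other 3 had smaller differences, Mgll of -0.80 and -0.69, Pla2g7 of -0.03 and -0.02, and Faah of -0.25 in control medium and of the opposite sign in tumor CM (0.17).

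All 15 genes known to respond to cyclic AMP were tested. Of these, tumor CM raised 2 and lowered 2 in CD26- NFs, where 7.88% of all tested genes rose and 7.28% fell. It raised 2 and lowered 5 in CD26+ NFs, where 15.2% of all genes rose and 13.4% fell. Rgs2, a regulator of G protein signaling, rose in both (0.55, FDR 0.0401, and 0.81, FDR 0.00231), and Pde3a, a phosphodiesterase that degrades cyclic AMP, rose in CD26+ NFs (0.89, FDR 0.00111). Crem, a cyclic AMP-responsive transcription factor, fell in CD26- NFs (-0.59, FDR 0.0293), and Per1 fell in CD26+ NFs (-0.84, FDR 0.00221). Set against CD26- NFs, CD26+ NFs had higher levels of 3 and lower levels of 5 in control medium, and of 2 and 5 in tumor CM, beside the shares of all genes of 25.0% and 25.4%, and of 29.3% each way. Areg, a ligand of the epidermal growth factor receptor that epithelial cells also express, was lower by 2.26 in control medium (FDR 1.68e-05) and by 2.16 in tumor CM (FDR 4.00e-07), and Fos by 1.26 and 1.36. The covariate left no call between cell types in this list either (edgeR; 1 at an unadjusted p under 0.05 in each medium), and none for the CM effect in CD26- NFs (7 at an unadjusted p under 0.05). Areg then differed by -0.60 and -0.74 and Fos by -0.01 and -0.26 between cell types. The CM effects in CD26- NFs were then -0.73 for Pde10a (-0.68 without the covariate), 0.34 for Id1 (0.36), 0.39 for Rgs2 (0.55) and -0.46 for Crem (-0.59), with FDRs of 0.0577 to 0.119. None had a CM effect that differed between the cell types at an FDR under 0.05 (edgeR; 2 at an unadjusted p under 0.05; 0 by DESeq2).

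By likeness over the 18 libraries, the genes closest to Ptgs2 were Lin7c (Pearson's r of log2 CPM 0.987), Ifi30 (0.983), 9930014A18Rik (0.980) and Egflam (0.978). Those closest to Hpgd were Brdt (0.941), Trim46 (0.938), Fntb (0.935) and Rilpl2 (0.928). The libraries fall into 4 groups that the cell types and media define, and the share of each correlation that comes from the groups was not tested.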

How the data were processed

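Polyadenylated RNA was sequenced single-end in 18 stranded libraries. The authors deposited raw counts per gene, not normalized. The submitters' processing notes name HISAT2 2.1.0, HTSeq and GRCm38, and the strand setting and annotation release are not given in the sources used here. The table has 1 row without a gene, which holds 0 counts. The coordinates of all 10 members match GENCODE on GRCm38. Libraries had 9725723 to 14585349 counts, which limits the genes with few counts.

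A filter on low counts (filterByExpr) left 14273 genes. They were tested after TMM scaling by edgeR 4.0.16 in R 4.3.3, using its quasi-likelihood F test in 1 model with a term per group and Benjamini-Hochberg adjustment over all these genes. The study used DESeq2 with an FDR limit of 0.05 and a log2 fold change limit of 2. DESeq2 1.42.0, other scaling and filters, the compared groups alone, an epithelial marker covariate and leaving out each library were alternatives. Log2 CPM had a prior count of 2. Libraries that shared a CM line correlated in their deviations from the group means (r from 0.247 to 0.406 in all 6 pairs, against -0.315 to 0.242 for other lines), so the line was also used as a block. Replicates differed beyond counting error (lowest chi-square per degree of freedom 3.22). The labels give no batch. The 10 genes, which are all named in each comparison, and the lists were chosen with earlier results of these data known. From the lists, genes were named from the 4 or fewer called genes with the smallest p in a comparison, and not all of these were named. The marker genes named and the list genes given with the covariate were chosen after their values were seen. The pipeline was tested on simulated counts.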

Additional observations from a re-analysis of the deposited data

Results flagged for a closer look

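Of 20 tests for a library far from the rest of its CM group, 2 were positive, where chance gives about 1 in 20. Ptgs2 had 1768 CPM in CD26- CM replicate 4, which received CM of 13-MCB-17, and the nearest library had 2493 CPM. Without this library the CM effect of Ptgs2 in CD26- NFs was 0.14 (FDR 0.517). Ptger4 had 6.39 CPM in CD26+ CM replicate 17, which received CM of 13-MCB-90, and the nearest library had 8.33 CPM. Without it the CM effect of Ptger4 in CD26+ NFs was 0.44 (FDR 0.0138).

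The CM effect differed between the cell types for 3 genes in the fit of the groups alone, and for 8 with the CM line as replicate block. The difference in log2 fold change, CD26+ minus CD26-, was 0.81 for Ptgs2, 0.91 for Slco2a1 and -1.24 for Ptgfr. The call was lost for Ptgs2 in 5 of the fits that left out 1 library (FDR up to 0.112) and for Slco2a1 in 4 (FDR up to 0.0746).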

How the results depend on the processing

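With the limit on the fold change added, the number of members called went from 4 to 0 for the CM effect in CD26- NFs, from 8 to 0 in CD26+ NFs, from 8 to 4 and from 8 to 1 between cell types in control medium and tumor CM, and from 3 to 0 for the difference in CM effect. The epithelial marker covariate left 4 members called between cell types in each medium, and with it Hpgd reversed to -0.31 in tumor CM. The CM line as replicate block raised the members called for the difference from 3 to 8 and, between cell types in tumor CM, from 8 to 9, and changed no other member's call in these comparisons, the only ones it was run on. Leaving out 1 library gave 1 to 4 members for the difference, and 2 to 5 for the line test. The CM effect of Ptger3 in CD26- NFs, where it has few counts, ranged from -0.46 to 0.29 and reversed without CD26- control replicate 1 or CD26- CM replicate 6. Without a filter on low counts 6 members passed the line test, in a fit that set all genes to 1 shared spread and in which 11.9% of all genes passed. The single-gene results were refitted under each alternative, most of which left out 1 library and so overlap. Of these 1195 refitted values, 1135 kept the direction and side of the threshold, 40 lost the call, 17 gained it and 3 reversed. A minimum mean of 5 CPM left out Ptger2, Ptger3 and Hpgd. RLE scaling moved the median of all genes by under 0.1.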
